A study of Homo sapiens with 20 samples.

Results

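The ISG15 and UBD conjugation system comprises 8 genes chosen by name, of 43366 genes counted: the modifiers ISG15 and UBD, the activating (E1) enzymes UBA7 and UBA6, the conjugating (E2) enzyme UBE2L6, the ligases (E3) HERC5 and HERC6, and the protease USP18. mRNA was sequenced from clones of U2OS, a human osteosarcoma cell line, either WT or knocked out for the zinc-finger transcription factor ZBTB48 (KO). In each genotype 5 clones were sampled untreated and 5 treated with IFNγ (250 U/ml) for 24 h, which gave 4 groups of 5 libraries and 20 libraries in all. Each library stands for 1 clone, the same clone names recur in the treated and untreated groups, and there was a single dose and time.

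ISG15 is a small protein made of a pair of ubiquitin-like domains, and UBD encodes FAT10, which is built in the same way. UBA7 activates ISG15, UBE2L6 takes it over, HERC5 is its main ligase in human cells, HERC6 is the closest relative of HERC5, and USP18 removes ISG15 from its targets and also restrains signalling at the type I interferon receptor. FAT10 is activated by UBA6, which also activates ubiquitin, and FAT10-tagged proteins are degraded by the proteasome. Most of these genes are textbook interferon-stimulated genes, and FAT10 is known for its response to IFNγ together with TNF.

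IFNγ raised 5 members by more than 2-fold in both genotypes: ISG15, its E1 UBA7, its E2 UBE2L6, the ligase HERC6 and the protease USP18. UBA6, which was already abundant, rose in WT clones by less than 2-fold. HERC5, the main ISG15 ligase, stayed at the edge of detection in all 20 libraries, and the counts of UBD could not be read as its level, for a reason given with its values. No member passed the test between WT and KO labels. HERC6 stood lower in every treated library labelled KO than in any treated WT library. In that comparison 0.805% of the 19383 genes tested had ranges apart in either direction.

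Total counts per library ran from 46652288 to 72952859, and 3 counts, taken as the floor, came to between 0.0404 and 0.0609 CPM (counts scaled to library size after TMM normalization). The mesenchymal and bone markers VIM, SPARC and COL1A1 were at 285 CPM or more in every library, although COL1A2 and NT5E stayed under 1 CPM. Of the markers of other cell types, CD3E had at most 4 counts in a library, whereas EPCAM reached 660 counts (12.7 CPM), CDH1 313, PECAM1 146 and PTPRC 68. None of the 10 such markers was called in a comparison by edgeR or by DESeq2 (edgeR tested 4 of them, of which 1 had an unadjusted p under 0.05 in any of the 5 comparisons). ZBTB48 mRNA ran from 8.02 to 11.6 CPM in the WT libraries. In KO replicate 3 it was not below them, with 11.3 CPM untreated and 15.8 CPM after IFNγ. The mRNA level does not show whether the protein was made. MTFP1, a gene that ZBTB48 activates, was at 27.2 to 53.0 CPM in the WT libraries and at most 0.938 CPM in all libraries labelled KO, replicate 3 among them. Deviations from the group mean correlated within the same clone number in all 5 WT clones and in KO replicates 1 to 3. In KO replicates 4 and 5 they did not (r of -0.03 and 0.03 over 21052 genes), whereas the treated library of each correlated with the untreated library of the other (0.61 and 0.53).

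Promoter sequence is shown for ISG15, which rose, for HERC5, where no rise was detectable, and for HERC6, which rose next to it, because they differ in the letters of the interferon-stimulated response element (ISRE). The 250 bases before the gene start were taken from RefSeq promoter entries (GRCh38.p14), which matched 6 of the 8 members, without UBA7 and USP18. Capitals mark each match to the ISRE core, written GAAANNGAAA or, on the other strand, TTTCNNTTTC, at chr1:1013247-1013496 (+) for ISG15, chr4:88456869-88457118 (+) for HERC5 and chr4:88378602-88378851 (+) for HERC6.
ISG15: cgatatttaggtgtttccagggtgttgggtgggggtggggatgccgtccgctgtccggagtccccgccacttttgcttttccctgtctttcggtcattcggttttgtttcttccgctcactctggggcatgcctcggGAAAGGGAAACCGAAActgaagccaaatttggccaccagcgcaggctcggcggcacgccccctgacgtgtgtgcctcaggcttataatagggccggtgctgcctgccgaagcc
HERC5: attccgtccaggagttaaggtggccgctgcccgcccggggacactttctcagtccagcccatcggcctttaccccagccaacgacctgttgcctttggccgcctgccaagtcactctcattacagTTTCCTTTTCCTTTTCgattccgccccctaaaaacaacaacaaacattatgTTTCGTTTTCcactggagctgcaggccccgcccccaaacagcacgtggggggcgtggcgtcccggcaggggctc
HERC6: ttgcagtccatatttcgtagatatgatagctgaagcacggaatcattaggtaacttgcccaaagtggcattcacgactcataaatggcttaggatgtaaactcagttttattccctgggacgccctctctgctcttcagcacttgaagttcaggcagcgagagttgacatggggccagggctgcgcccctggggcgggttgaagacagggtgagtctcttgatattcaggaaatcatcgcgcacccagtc
In ISG15 there are 2 matches that overlap, from 113 to 98 bases before the start. HERC5 holds 3 matches on the other strand, between 125 and 65 bases before the start. None lies in the windows of HERC6, UBA6, UBD or UBE2L6, and 3.02% of all 35116 promoter entries hold at least 1 such match. The gamma-activated sequence, searched as TTCNNNGAA, which reads the same on both strands, was found in 6.57% of the entries and in none of the members'. These are matches of letters in a short window and do not show which sites were bound.

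ISG15, the modifier itself, lies at chr1:1013497-1014540 on the plus strand. In the WT clones its level was 14.1, 18.7, 16.9, 12.6 and 8.06 CPM untreated (replicates 1 to 5) and 125, 150, 137, 186 and 123 CPM after IFNγ. The libraries labelled KO had 12.0, 2.21, 12.8, 14.9 and 12.6 CPM untreated and 98.2, 74.6, 148, 145 and 170 CPM after IFNγ. The lowest treated library was above the highest untreated one in both genotypes, and untreated KO replicate 2 lay far below the other 9 untreated libraries. The log2 fold change was 3.37 (standard error, SE, 0.22, adjusted p = 4.4e-06 by edgeR's quasi-likelihood test) in WT clones and 3.54 (SE 0.45, adjusted p = 0.000993 by edgeR) under the KO label. In bulk libraries, more RNA per cell and more cells with the RNA cannot be told apart.

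UBA7, the E1 that activates ISG15, had the largest fitted change of the members in both genotypes. It lies at chr3:49805209-49813953 on the minus strand and shares 29 of its 3304 exon bases with MIR5193. In the WT clones it was at 3.16, 3.03, 2.84, 4.92 and 1.36 CPM untreated and 95.4, 154, 115, 76.8 and 88.9 CPM after IFNγ. In those labelled KO it was at 5.02, 0.445, 3.4, 1.87 and 6.57 CPM untreated and 87.5, 92.3, 57.5, 121 and 110 CPM after IFNγ. Every treated library was more than 8 times the highest untreated one, and untreated KO replicate 2 was again the lowest of all, with 22 counts. Its log2 fold change was 5.12 (SE 0.33, adjusted p = 3.81e-06 by edgeR) in WT clones, place 66 of 19522 genes by size of rise. It was 4.76 (SE 0.58, adjusted p = 0.000761 by edgeR) under the KO label, place 62 of 19385.

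UBA6, the E1 shared by FAT10 and ubiquitin, lies at chr4:67612652-67701155 on the minus strand and was the member with the most CPM before treatment. Its levels were 142, 126, 123, 133 and 171 CPM in untreated and 217, 193, 193, 223 and 253 CPM in treated WT clones. Libraries labelled KO had 127, 104, 93.0, 94.9 and 128 CPM untreated and 215, 156, 156, 217 and 160 CPM after IFNγ. The treated libraries lay above the untreated ones without overlap in both genotypes, but the rise was small. It came to 0.65 on the log2 scale (SE 0.12, adjusted p = 0.00626 by edgeR) in WT clones, under the 2-fold limit, and 0.72 (SE 0.15, adjusted p = 0.0145 by edgeR) under the KO label, past neither limit.

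UBE2L6, the E2 that passes ISG15 on, lies at chr11:57551662-57567935 on the minus strand. In the WT clones its level was 25.9, 36.1, 32.9, 32.0 and 25.4 CPM untreated and 378, 402, 392, 472 and 413 CPM after IFNγ. With the KO label it was 31.5, 11.1, 34.6, 28.1 and 26.6 CPM untreated and 363, 376, 434, 455 and 393 CPM after IFNγ. The treated libraries of both genotypes fell in a narrow band, with the highest 1.25 times the lowest in each group. The log2 fold change of 3.77 in WT clones (SE 0.13, adjusted p = 2.86e-08 by edgeR) had the smallest adjusted p of the members, and the change under the KO label was 3.93 (SE 0.28, adjusted p = 1.14e-05 by edgeR).

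HERC6, a ligase of the HERC family, lies at chr4:88378852-88443097 on the plus strand. In the WT clones it stood at 11.1, 8.11, 9.81, 11.7 and 9.29 CPM untreated and at 48.9, 43.6, 46.6, 55.5 and 45.2 CPM after IFNγ. For the KO label the values were 10.7, 2.27, 8.5, 6.19 and 5.84 CPM untreated and 32.2, 32.2, 39.2, 28.5 and 27.1 CPM after IFNγ. IFNγ moved every clone above all untreated libraries. The 5 treated libraries labelled KO were all below the 5 treated WT libraries, a separation found in either direction for 0.805% of the genes. The response was 2.28 on the log2 scale in WT clones (SE 0.13, adjusted p = 1.37e-06 by edgeR) and 2.25 under the KO label (SE 0.33, adjusted p = 0.00251 by edgeR). Of its 3812 exon bases, 155 are shared with LOC102723458 on the minus strand, and reads there were counted for neither gene.

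USP18, the protease that takes ISG15 off its targets, lies at chr22:18150170-18177397 on the plus strand. It was at 5.82, 4.74, 5.65, 4.11 and 1.7 CPM in untreated and 18.3, 18.6, 19.1, 19.1 and 13.3 CPM in treated WT clones. The KO-labelled libraries had 4.42, 2.65, 4.44, 7.3 and 5.9 CPM untreated and 12.6, 10.8, 16.5, 26.1 and 35.0 CPM after IFNγ. The groups did not overlap, and the treated libraries labelled KO spread 3.24-fold, from replicate 2 to replicate 5, against 1.43-fold in the WT clones. Its log2 fold change was 2.02 (SE 0.29, adjusted p = 0.00116 by edgeR) in WT clones and 2.03 (SE 0.37, adjusted p = 0.00796 by edgeR) under the KO label. Without WT replicate 2 or 4 the adjusted p rose to 0.0128 and 0.0127, past the limit, at log2 fold changes of 2.03 and 1.97. Without KO replicate 1, 3, 4 or 5, or with library totals in place of TMM, it also passed the limit (up to 0.0493), at log2 fold changes between 1.81 and 2.14. USP41, a close copy of USP18, had no entry under that name among the 43366 genes counted and was not analysed. Only uniquely mapped reads were counted, and how many USP18 reads this left out was not tested.

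HERC5, the main ISG15 ligase, lies at chr4:88457119-88506163 on the plus strand, 14.0 kb from HERC6. Its counts were 0, 0, 9, 8 and 1 in the untreated and 2, 1, 9, 7 and 3 in the treated WT libraries. Libraries labelled KO had 0, 0, 0, 0 and 0 counts untreated and 4, 0, 2, 0 and 0 after IFNγ. Of 46 counts in all, 33 (71.7%) came from WT replicates 3 and 4, treated and untreated alike. Over the groups the WT clones had 22 counts after and 18 before IFNγ, a ratio, scaled to library size, of 1.15 with a 95% counting interval from 0.59 to 2.28, and their ranges overlapped (exact permutation test, two-sided, p = 0.69). The 6 counts after IFNγ under the KO label, 4 and 2 in replicates 1 and 3, stood against 0 untreated. They were 1.85-fold a floor of 3 counts for the whole group, a fold without an interval (exact permutation p = 0.444). Between genotypes the untreated WT clones were at 5.75-fold the same floor (exact permutation p = 0.167). Treated WT clones were 3.58-fold above those labelled KO (1.41 to 10.8, exact permutation p = 0.0952). These intervals cover counting error only, and the counts fell unevenly over the clones, so a response of HERC5 was not detectable at this depth. HERC5 did not pass edgeR's filter on low counts and was not tested there.

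UBD, which encodes FAT10, lies at chr6:29555515-29559732 on the minus strand. Its deposited counts were 0, 0, 0, 0 and 0 in the untreated and 3, 3, 9, 3 and 5 in the treated WT libraries. In libraries labelled KO they were 0, 0, 0, 4 and 0 untreated and 11, 7, 12, 0 and 4 after IFNγ. The treated WT libraries were all above the untreated ones, while the single treated library at 0, KO replicate 4, carries the number of the single untreated library with counts. Over all genes, that untreated library correlated with treated KO replicate 5 (r of 0.53), which had 4 UBD counts, and not with treated KO replicate 4 (-0.03). Over the groups, the treated WT clones were at 7.23-fold a floor of 3 counts for the whole group, without an interval (exact permutation p = 0.00794, the smallest that 5 against 5 libraries allow). The treated libraries labelled KO had 34 counts against 4, a ratio of 7.87 (2.81 to 30.5, exact permutation p = 0.0476, and p = 0.143 without KO replicate 2 or 3). Neither these ratios nor the 61 counts in all give the level of UBD, because of how the reads were counted.

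Of the 894 exon bases of UBD, 836, its whole second exon, lie under an exon of OR2I1P on the plus strand, which leaves 58 bases (6.49%) where a read could be counted for UBD alone. The libraries were stranded, but the counts were such as counting without strand leaves. All 198 genes whose exon bases lie wholly under exons of the opposite strand had 0 counts in every library, whereas 80.2% of the 31954 genes that share no exon base had at least 1. OR2I1P, named here after its values were seen, had 0, 1, 4, 0 and 0 counts in the untreated WT libraries and 505, 305, 2150, 417 and 106 after IFNγ. Under the KO label it had 0, 0, 28, 0 and 0 counts untreated and 1245, 34, 4945, 309 and 206 after IFNγ. The 3 libraries with most OR2I1P counts, treated KO replicate 3, WT replicate 3 and KO replicate 1, were also the 3 with most UBD counts (12, 9 and 11). Others did not follow this: treated KO replicate 2 had the fewest OR2I1P counts of the treated libraries (34) with 7 of UBD. Treated KO replicate 4 had 309 of OR2I1P with 0 of UBD. Its log2 fold change was 9.04 in WT clones (SE 1.05, adjusted p = 0.000291 by edgeR) and 7.94 under the KO label (SE 1.7, adjusted p = 0.0169 by edgeR, not called). It was called there by DESeq2 without shrinkage, with all 20 libraries together, with the replicate block (8.4, adjusted p = 8.16e-05 by edgeR) and with the block and KO 4 and 5 exchanged (8.2, adjusted p = 7.33e-07 by edgeR). These were 4 of 13 alternatives, over which the log2 fold change under the KO label ran from 0.49 to 11.71. In WT clones it ran from 2.04 to 9.85 over 12 alternatives, so the size of the rise is not settled. Under counting without strand, reads on the 836 shared bases go to neither gene and cannot be given to UBD or OR2I1P. Reads counted on the other bases carry no strand either.

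By the same cut-offs throughout, an adjusted p under 0.01 and a change over 2-fold, 6 of the 8 members were tested and 5 of these passed them upwards with IFNγ in WT clones, where 2.48% of 19522 genes were called higher and 0.512% lower. In the libraries labelled KO the count was again 5 of 6, with ISG15, UBA7, UBE2L6, HERC6 and USP18 in both, where 1.7% of 19385 genes were called higher and 0.258% lower. Treated and untreated ranges did not overlap for all 6 tested members in either genotype, which held in that direction for 6.68% of the genes in WT clones and 6.07% under the KO label. The exact permutation test gave its smallest p, 0.00794, for each of these 6 members in both genotypes (32 such tests were run on the members). The members' median log2 fold change was 2.83 in WT clones and 2.9 under the KO label, against -0.03 and -0.032 over all genes tested.

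Under the KO label, UBE2L6 was called in all 13 alternatives tried, but the call of ISG15 was lost without KO replicate 1, 3, 4 or 5 (adjusted p up to 0.0131), HERC6 without replicate 3, 4 or 5 (up to 0.0257) and UBA7 without replicate 4 (0.0108). The folds stayed close to those of all 5 clones: leaving out 1 replicate number at a time, ISG15 lay between 3.42 and 3.68, HERC6 between 2.02 and 2.5 and UBA7 between 4.48 and 5.06 on the log2 scale. Without replicate 2, whose untreated library is the low one, all 5 calls remained. In WT clones ISG15, UBA7, UBE2L6 and HERC6 were called in all 12 alternatives.

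Untreated KO replicate 2 was lowest of the 5 untreated libraries labelled KO for 5 of the 6 tested members, with UBA6 the exception. For 4 of them, ISG15, UBA7, UBE2L6 and HERC6, it lay below 0.5 times the lowest of the other 9 untreated libraries, as did 657 of 19505 genes (3.37%). The other 4 libraries labelled KO averaged 5.92 times its level for ISG15, 9.47 times for UBA7, 2.72 times for UBE2L6 and 3.44 times for HERC6. After IFNγ the same clone reached 92.3 CPM of UBA7, 376 CPM of UBE2L6 and 32.2 CPM of HERC6, inside the range of the other treated libraries, and 74.6 CPM of ISG15 and 10.8 CPM of USP18, below it. Its treated level was 33.8 times the untreated one for ISG15, 207 times for UBA7, 33.9 times for UBE2L6 and 14.2 times for HERC6. Among WT clones, untreated replicate 5 was lowest for ISG15, UBA7, UBE2L6 and USP18, and highest for UBA6. It was set apart from the other WT libraries by Dixon's test for USP18 only, and for UBE2L6 it was close to replicate 1 (25.4 against 25.9 CPM).

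The next question was whether loss of ZBTB48 changed these genes, and no member was called between WT and KO labels by edgeR or DESeq2. Among untreated libraries 3 of 19505 genes (0.0154%) were called, and among treated ones 3 of 19383 (0.0155%). At an unadjusted p under 0.05 there was 1 of 6 members in each comparison, UBA6 untreated and HERC6 after IFNγ, where 935 of 19505 and 843 of 19383 genes were. Positive values are higher in WT. The other log2 differences lay between -0.18 and 0.57 untreated and between -0.2 and 0.26 treated.

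HERC6 differed most. After IFNγ the WT clones had 48.0 ± 4.64 CPM (SD, n = 5) and the libraries labelled KO 31.8 ± 4.69 CPM (SD, n = 5), with ranges that did not overlap, as for 0.805% of the genes in that comparison. The log2 difference was 0.59 (SE 0.13), under 2-fold, with an unadjusted p of 0.000613 and an edgeR adjusted p of 0.65. Over 17 alternatives the adjusted p ran from 0.0245, with DESeq2, to 1.0, and the difference from 0.53 to 0.68. Its exact permutation p was 0.00794 among the 32 tests on the members, the value that every gene with ranges apart reaches at 5 against 5 libraries. Without KO replicate 3, which had the most HERC6 of the treated libraries labelled KO (39.2 CPM), the difference was 0.68 (edgeR adjusted p = 0.434). Untreated, the WT clones had 10.0 ± 1.42 CPM (SD, n = 5) of HERC6, against 6.69 ± 3.14 CPM (SD, n = 5) under the KO label, with overlapping ranges, a log2 difference of 0.57 (SE 0.33) and an edgeR adjusted p of 0.98.

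Untreated WT clones had 139 ± 19.1 CPM (SD, n = 5) of UBA6, against 109 ± 17.1 CPM (SD, n = 5) under the KO label. This log2 difference of 0.34 had a standard error of 0.13 and an edgeR adjusted p of 0.98, and the exact permutation p was 0.0476 (0.0714 without KO replicate 2 or 3). None of the 6 tested members had untreated ranges apart between genotypes, as 1.0% of the genes did. ISG15 differed by 0.35 (SE 0.41) untreated and 0.18 (SE 0.22) after IFNγ, and UBE2L6 by 0.19 (SE 0.25) and 0.02 (SE 0.11). Without KO replicate 2 the untreated differences were 0.09 for ISG15, -0.0 for UBE2L6 and 0.35 for HERC6. The treated difference of UBE2L6 was the smallest of the members and had the smallest standard error.

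**Figure D1:**
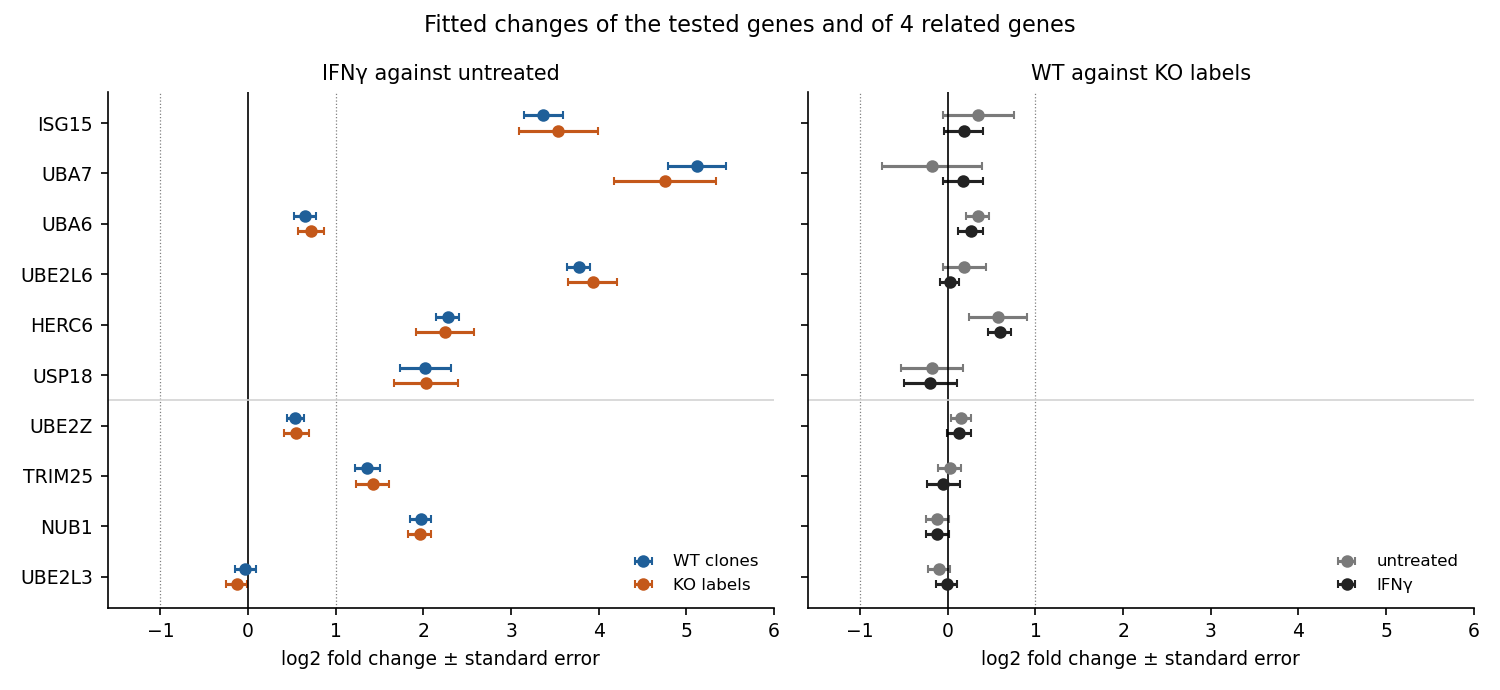
Log2 fold changes (points) with standard errors (bars) from edgeR for the 6 tested members, above the grey line, and 4 related genes below it, on the left for IFNγ against untreated and on the right for WT against KO labels. Dotted lines mark a 2-fold change. ISG15, UBA7, UBE2L6, HERC6 and USP18 lie beyond it on the left in both genotypes, and on the right no gene reaches it, with HERC6 farthest out at 0.57 and 0.59.

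The size of the IFNγ response did not differ detectably between genotypes. The fitted difference of the responses (WT minus KO) was -0.18 for ISG15 (SE 0.48), 0.35 for UBA7 (0.62), -0.18 for UBE2L6 (0.28), 0.01 for HERC6 (0.36), -0.02 for USP18 (0.47) and -0.09 for UBA6 (0.19), all with an edgeR adjusted p of 1.0. No gene was called here (0.0% of 21052) by edgeR or DESeq2, with 86 and 115 genes at an unadjusted p under 0.05, none of them a member by edgeR. These fits did not pair the treated and untreated libraries of a clone. Paired by the replicate block, edgeR had 317 such genes, and 584 with KO 4 and 5 exchanged, again with none called. All these counts are below the 0.05 share of genes that would be met without any difference. Taken clone by clone, the log2 response of ISG15 was 3.39 ± 0.466 (SD, n = 5) in WT and 3.72 ± 0.775 (SD, n = 5) in KO clones, and the exact permutation p over the 8 members ran from 0.476 to 0.976. Exchanging KO 4 and 5 after IFNγ gave a p of 0.135 for UBA6 and 0.452 for ISG15, and without KO replicate 2 it was 0.0873 for HERC6. The response of HERC6 was between 2.13 and 2.41 in all 5 WT clones and between 1.59 and 3.77 in the KO clones. The standard errors, fitted without pairing, leave room for differences of about 1 on the log2 scale in ISG15, UBA7 and USP18.

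Levels were also set beside each other per length, as FPKM, the CPM divided by the exon length in kilobases. In untreated WT clones UBE2L6 had 23.3 ± 3.55 FPKM (SD, n = 5), ISG15 22.1 ± 6.45 (SD, n = 5) and UBA6 14.6 ± 2.0 (SD, n = 5), and neighbours in this order overlapped. HERC6 followed with 2.62 ± 0.372 FPKM (SD, n = 5), USP18 with 2.32 ± 0.877 (SD, n = 5), which overlapped HERC6 and UBA7, and UBA7 with 0.927 ± 0.383 (SD, n = 5). HERC5 was last at 0.0188 ± 0.0242 FPKM (SD, n = 5), apart from all others. Before treatment, the E1 for ISG15 was thus lowest of the 6 tested members, while its E2 and the modifier were in the top 10% of the 31446 genes with counts (percentiles 91.5 and 91.0).

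After IFNγ the order in WT clones was UBE2L6 with 315 ± 27.9 FPKM (SD, n = 5), ISG15 with 226 ± 40.2 (SD, n = 5), UBA7 with 32.1 ± 9.1 (SD, n = 5) and UBA6 with 22.6 ± 2.61 (SD, n = 5). HERC6 had 12.6 ± 1.22 FPKM (SD, n = 5) and USP18 9.32 ± 1.3 (SD, n = 5). UBE2L6 overlapped ISG15 and UBA7 overlapped UBA6, whereas the other neighbours were apart. Under the KO label the first 4 places were the same, with 309 ± 29.9 FPKM (SD, n = 5) of UBE2L6 and 199 ± 61.6 (SD, n = 5) of ISG15, and USP18 and HERC6 overlapped in the places after them.

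The ratio of UBA7 to UBA6 per length, ISG15's E1 over that of FAT10, went from 0.066 ± 0.0296 (SD, n = 5) untreated to 1.46 ± 0.553 (SD, n = 5) in WT clones. Under the KO label it went from 0.0875 ± 0.0532 (SD, n = 5) to 1.51 ± 0.385 (SD, n = 5). ISG15 over its protease USP18 went from 10.2 ± 2.72 (SD, n = 5) to 24.4 ± 3.77 (SD, n = 5) in WT clones and from 6.31 ± 2.39 (SD, n = 5) to 20.3 ± 4.92 (SD, n = 5) under the KO label. Ranges before and after treatment were apart in both ratios and both genotypes.

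**Figure D2:**
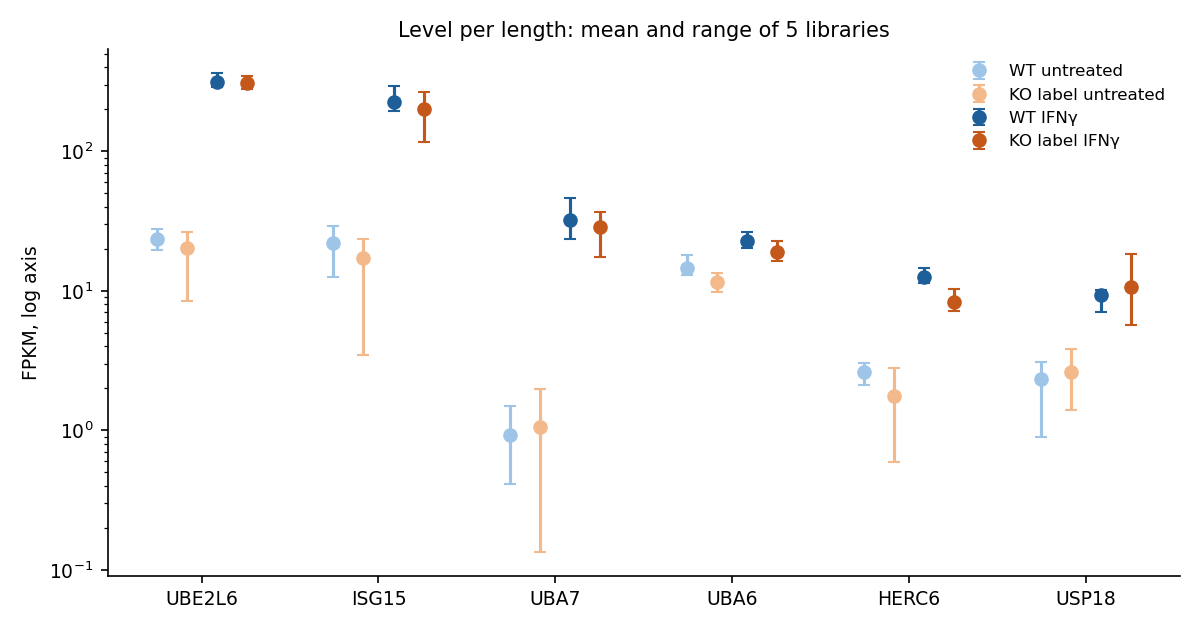
Points give the mean level per length (FPKM, log axis) of the 6 tested members and bars the range of 5 libraries, in each of the 4 groups. UBA7 moves from below UBA6 (0.927 against 14.6 FPKM in WT clones) to the same range (32.1 against 22.6), and UBE2L6 and ISG15 are highest in all groups.

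Among 17 partners of ISG15 and FAT10, all tested, 2 were called higher in both genotypes. NUB1, which binds FAT10 and speeds its degradation, rose in WT clones from 12.1 ± 1.08 to 46.7 ± 5.81 CPM (SD, n = 5), by 1.97 on the log2 scale (SE 0.12, adjusted p = 2.97e-06 by edgeR), and by 1.96 (SE 0.13, adjusted p = 6.34e-06 by edgeR) under the KO label. TRIM25, a ligase that is itself modified by ISG15, rose by 1.36 (SE 0.14, adjusted p = 0.000114 by edgeR) and 1.42 (SE 0.19, adjusted p = 0.00148 by edgeR). SKP2, a ubiquitin ligase subunit that marks USP18 for degradation, was the 1 partner called lower, in WT clones with -1.07 (SE 0.14, adjusted p = 0.000611 by edgeR). Under the KO label SKP2 had -1.11 (SE 0.37, adjusted p = 0.0959 by edgeR), and no partner was called lower. With the replicate block it had -1.29 (adjusted p = 0.0123 by edgeR), and with KO 4 and 5 exchanged in the block -1.28 (adjusted p = 0.00569 by edgeR), which is past both limits. UBE2Z, the E2 that takes FAT10 from UBA6, had 0.54 (SE 0.1, adjusted p = 0.00493 by edgeR) and 0.55 (SE 0.14, adjusted p = 0.0318 by edgeR), under 2-fold like UBA6. No partner was called between genotypes by edgeR or DESeq2, with 1 and 0 partners at an unadjusted p under 0.05 untreated and treated.

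No relative of the members was called with IFNγ by edgeR. For the counts of relatives at an unadjusted p under 0.05, the same limit took in 4868 of 19522 genes in WT clones and 4548 of 19385 under the KO label. UBE2L3, the closest tested relative of UBE2L6, had log2 fold changes of -0.03 (SE 0.12) and -0.13 (SE 0.12), and UBE2L5 did not pass the filter. None of the 8 other E1 and E1-like enzymes was called by either tool, with 1 in WT clones and 3 under the KO label at an unadjusted p under 0.05. Of 4 other HERC ligases none was called by either tool, with 2 in each genotype at an unadjusted p under 0.05. Of these, HERC3, which lies beyond HERC5 on chromosome 4, had -1.23 (SE 0.47, adjusted p = 0.124 by edgeR) and -1.36 (SE 0.45, adjusted p = 0.0909 by edgeR), against the rise of HERC6. Between genotypes HERC3 was higher in WT by 1.13 untreated (SE 0.47, adjusted p = 0.98 by edgeR) and 1.25 treated (SE 0.45, adjusted p = 0.996 by edgeR). It was not called, and the other HERC relatives lay between -0.15 and 0.06 untreated and between -0.11 and 0.27 treated. Of 15 other modifiers edgeR called none (4 and 5 at an unadjusted p under 0.05) and DESeq2 called 1, the autophagy modifier MAP1LC3B, with edgeR values of 1.3 (SE 0.29, adjusted p = 0.014) and 1.39 (SE 0.31, adjusted p = 0.0201).

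Transcripts of 10 interferon genes of types I, II and III were also counted. IFNB1 had at most 2 counts in a library, and IFNA1 had 0 in every library, which allows up to 0.0609 CPM in the shallowest. Of the 10, 6 never exceeded 3 counts, and the highest were IFNE with 21 and IFNK with 7. None passed the filter in the comparisons of 10 libraries.

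The nearest tested genes on each side were examined for the members. The counts of SMTNL1, 1.4 kb from UBE2L6 on the other strand, rose by 4.23 (SE 0.31, adjusted p = 8.75e-06 by edgeR) in WT clones. Under the KO label they rose by 4.03 (SE 0.44, adjusted p = 0.00034 by edgeR), and their mean was 1.94 CPM. As the counts looked made without strand, they do not tell which strand these reads came from, and their source was not tested. SERPING1, the C1 inhibitor gene 29.8 kb to the other side of UBE2L6, rose by 1.73 (SE 0.26, adjusted p = 0.00151 by edgeR) and 1.94 (SE 0.2, adjusted p = 0.000234 by edgeR). UBA6-DT, a transcript 0.1 kb from UBA6 on the other strand, had 0.68 (SE 0.12, adjusted p = 0.00425 by edgeR) and 0.66 (SE 0.18, adjusted p = 0.05 by edgeR), close to the values of UBA6. The exons of UBA6 share no base with another gene. The neighbours of ISG15 (PERM1 and AGRN), UBD (LOC105375006 and OR2H2), UBA7 (INKA1 and TRAIP) and USP18 (TUBA8 and TMEM191B) were not called in either genotype, nor were CENPC beside UBA6 and LOC105377326 beside HERC6.

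The genes whose pattern over the 20 libraries was most like that of ISG15, by the root mean square difference of centred log2 CPM among 21046 genes, were DDX60 (0.359), IFIH1 (0.367), HLA-F (0.433), GBP3 (0.438) and PSMB8 (0.475). Untreated values entered the choice, so their low values in untreated KO replicate 2 follow in part from it, with 0.526 CPM of DDX60 against a mean of 5.31 CPM under the KO label and 1.32 CPM of IFIH1 against 8.15 CPM. The genes most like UBD by the same measure, GTF2H2 (0.287), NFKBIB (0.315), ZNF239 (0.317), PSMA6 (0.318) and PTCD2 (0.32), only shared its small range on this scale, since its counts were near the floor. Their log2 fold changes with IFNγ lay between 0.53 and 0.79.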

How the data were processed

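mRNA libraries of 20 U2OS samples were analysed. The authors used STAR 2.7.9a to align to GRCh38 and featureCounts 2.4.0 to count uniquely mapped reads on RefSeq genes, and deposited raw counts of 43366 genes. All columns matched a sample. The strand setting is not given in the sources used here and was read from the counts. Each comparison of 5 against 5 libraries was fitted over all genes with edgeR 4.0.16 (R 4.3.3; TMM, filter on low counts, robust quasi-likelihood test, Benjamini-Hochberg), called at an adjusted p under 0.01 and over 2-fold, and tested on simulated data first. The study's methods name DESeq2 with shrinkage, which was an alternative (1.42.0). The difference between responses used all 20 libraries. The main fits did not pair libraries by clone. Each member was further compared on log2(CPM + 0.1) by exact permutation, two-sided. Precision is limited by the 5 clones per group and, for genes near the floor, by the depth of 46652288 to 72952859 counts per library. Members and lists were chosen with earlier results of these data known. All 8 members are named, with listed genes called in any comparison, UBE2Z, TRIM25, NUB1, UBE2L3, USP41, the nearest neighbours, and the 5 genes most like ISG15 and UBD. Alternatives were other size factors, library totals, no filter, DESeq2, all libraries together, a replicate block, a pseudocount of 1, other cut-offs and leaving out each clone by its replicate number. Clone names tie treated to untreated libraries. Their deviations correlated at 0.59 to 0.77 in WT and 0.57 to 0.77 in KO replicates 1 to 3.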

Additional observations from a re-analysis of the deposited data

Results flagged for a closer look

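In 6 of 48 groups of 5 values, the highest or lowest value stood apart by Dixon's test (a gap over 0.71 of the range on the log2 scale). Independent groups would give 2.4 by chance. The groups here share libraries across genes, and the responses are made from the levels, so 6 against 2.4 does not measure an excess. In untreated libraries labelled KO, replicate 2 was low for ISG15 (2.21 CPM) and for UBE2L6 (11.1 CPM), and its HERC6 response, 3.77 on the log2 scale, was the highest of the KO clones. UBD was highest in untreated KO replicate 4 at 0.0674 CPM, which is 4 counts against 0 in the other libraries of that group. USP18 was low in WT replicate 5, both untreated (1.7 CPM) and after IFNγ (13.3 CPM).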

How the results depend on the processing

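The count of members called higher after IFNγ was 5 in WT clones and under the KO label. Leaving out 1 clone at a time, by its replicate number, it was 4 to 5 in WT clones and 1 to 5 under the KO label. For KO 4 and 5 this removed libraries that did not correlate with each other, and leaving them out exchanged was not tried. The replicate block changed no member's call, and no member's IFNγ response changed sign. Differences that were not called did change sign among the alternatives: WT against KO for UBA7 and USP18 untreated and for UBE2L6 and USP18 treated, and the difference between responses for UBA6, HERC6 and USP18. Over all genes, the calls in WT clones (585) became 976 with DESeq2 without shrinkage, 1414 with the replicate block, 2202 at an adjusted p under 0.05 with no fold limit, and 318 to 457 leaving out 1 clone. Under the KO label (379) they became 823 with DESeq2 without shrinkage, 754 with shrinkage, 642 with all 20 libraries together, 721 with the replicate block, 1208 with the block and KO 4 and 5 exchanged, 1528 at the looser limit, and 131 to 490 leaving out 1 clone. Between genotypes, the 3 untreated calls became 5 with no filter and with all libraries together, 12 and 7 with DESeq2 without and with shrinkage, 1 with the replicate block, 6 at the looser limit, and 2 to 4 leaving out 1 clone. The 3 treated calls became 5 with no filter, 16 and 12 with DESeq2, 6 with all libraries together, and 3 to 5 leaving out 1 clone. The causes of these shifts were not tested. Between genotypes, the replicate block joined WT and KO clones that share only a number, so it paired no libraries of the same clone. DESeq2's normal shrinkage was not run for the difference between responses, because it takes no interaction terms. SKP2 was called in WT clones except with all libraries together, and under the KO label only with the replicate block and KO 4 and 5 exchanged, and HERC6 untreated reached an exact permutation p of 0.0476 without KO replicate 3. At this depth HERC5, with at most 9 counts in a library, could not be resolved, and the counts of UBD are limited by the bases it shares.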
